A study of Mus musculus with 20 samples.

Results

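The genes described here are the membrane transporters that move bile acids, organic anions, organic cations, lipids and drugs into and out of the liver cell. They were chosen by name alone, as every symbol of the Slc22a, Slco, Slc10a, Abcb, Abcc and Abcg families followed by its number, which gave 73 genes of the 38784 symbols in the deposited table. The rule itself uses no measured value, but it was set with earlier results of these data known. Of these, 32 belong to the Slc10a and Slc22a families, 15 to Slco, 10 each to Abcb and Abcc and 6 to Abcg. A total of 7 had 0 counts in every library after rounding, and the filter on low counts left 53 for the RNA tests, 50 for the ribosome footprint tests and 51 for their difference. The 20 tested in neither assay, those 7 included, held the kidney anion transporters Slc22a6, Slc22a8 and Slc22a12.

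The samples were livers of 10 FVB/N mice, an albino inbred strain, aged 6 to 8 weeks. The labels name no engineered allele and no sex. Some hepatic transporters, Slco1a1 among them, are known to differ between male and female mice, and the part of sex in the differences could not be tested. Each received tail vein injections of lipid nanoparticles with 0.5 mg/kg siRNA, 1 injection in 5 days, and the siRNA was either directed against Eif3m, a subunit of translation initiation factor eIF3, or was a scrambled luciferase control, so that control and treated mice share the particle and the dose. Livers were taken at day 9 (3 control and 3 Eif3m mice) and day 13 (2 and 2), and each liver gave an RNA-seq library and a library of ribosome footprints, the mRNA fragments covered by a ribosome. Lipid nanoparticles reach mostly hepatocytes, but ground whole liver was sequenced, so fewer cells of a type and less RNA per cell cannot be told apart.

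Hepatocytes take up bile acids and other organic anions from the blood at the sinusoidal membrane, mainly through the sodium-coupled Slc10a1 and the sodium-independent Slco transporters. ATP-driven pumps of the Abcb, Abcc and Abcg families then secrete bile salts, conjugates, phospholipid and sterols across the canalicular membrane into bile. A second set of pumps, led by Abcc3, returns anions to the blood, and nuclear receptors that sense bile acids and drugs set the transcription of many of these genes.

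Library sizes limit what each comparison can show. RNA libraries held 24.3 to 39.02 M (mega) counts, apart from day 13 Eif3m replicate 1 at 19.8 M and replicate 2 at 4.96 M. Footprint libraries held 4.50 to 7.69 M at day 9 and 1.64 to 2.12 M at day 13, where Eif3m replicate 2 held 6.52 M. The 73 transporters took 0.650% to 1.10% of RNA counts and 0.296% to 0.558% of footprint counts. Eif3m itself averaged 74.6 ± 1.09 CPM (SD, n = 3) in control RNA at day 9 and 7.74 ± 0.51 (SD, n = 3) with its siRNA. At day 13 the same comparison gave 291 ± 70.0 (SD, n = 2) and 17.8 ± 3.58 (SD, n = 2), and footprints were at 76.0 ± 2.54 against 6.19 ± 0.54 at day 9 and at 77.7 ± 1.59 against 4.09 ± 2.31 at day 13 (SD, n = 3 and n = 2). CPM is the count relative to the library total and its TMM factor. It is not corrected for gene length, so levels of different genes are not compared.

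The sinusoidal uptake carriers Slco2b1, Slco1b2, Slc10a1 and Slc22a7 and the basolateral pump Abcc3 each fell in 2 or more comparisons, and the canalicular phospholipid transporter Abcb4 rose in 3. With Eif3m siRNA 26 of the 73 genes changed in at least 1 of the 4 comparisons (RNA and footprints, each at day 9 and day 13). The 73 include the 20 tested in neither assay. Slco2b1, Abcc3 and Slc22a26 were lower in all 4, no transporter was higher in all 4, and none was higher in 1 and lower in another. The matching shares of all genes over the 4 comparisons were not counted, so these counts are no result about the group. A change means an adjusted p below 0.05 in the edgeR quasi-likelihood test, Benjamini-Hochberg adjusted over all genes tested, and the p-values measure the spread between these mice.

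In RNA at day 9, 1 of 53 tested transporters rose (1.89%) and 5 fell (9.43%), against 2.48% and 3.19% of all 16444 genes tested. At day 13, 0 rose and 18 of 53 fell (34.0%), against 6.09% and 9.87% of all genes. In footprints at day 9, 3 of 50 rose (6%) and 11 fell (22%), against 6.84% and 7.9% of 12213 genes. At day 13, 2 rose (4%) and 9 fell (18%), against 6.12% and 6.26%. The shares of risers were near or under those of all genes, so the counts of higher transporters are no result about the group. The median log2 change of the tested transporters was -0.06 in RNA at day 9, -0.59 in RNA at day 13, -0.18 in footprints at day 9 and -0.41 in footprints at day 13, beside medians of -0.00, -0.16, 0.02 and 0.02 over all genes tested.

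These counts depend on single libraries. Without day 13 Eif3m replicate 2, the shallowest RNA library, 11 transporters changed in RNA and 4 in footprints at day 13, and leaving out each of the 10 libraries of an assay in turn (the leave-outs) gave 3 to 15 (RNA, day 9), 11 to 19 (RNA, day 13), 8 to 19 (footprints, day 9) and 4 to 15 (footprints, day 13). Scaling by library totals alone, without TMM, moved the median of all genes to 0.12, 0, 0.25 and 0.34 in the same order, and the share of higher genes among all called from 43.7%, 38.2%, 46.4% and 49.4% to 70.8%, 59.7%, 83.6% and 85.1%. The split of higher against lower transporters moved with it, from 1 and 5 to 4 and 4 (RNA, day 9), from 0 and 18 to 2 and 11 (RNA, day 13), from 3 and 11 to 8 and 6 (footprints, day 9) and from 2 and 9 to 2 and 7 (footprints, day 13). Falls lost in that way included those of Slc22a15 (RNA, day 9), of Abcb6, Abcb8, Abcb10, Abcg3, Slc22a27 and Slc22a29 (RNA, day 13), of Abcb11, Abcg5, Abcg8, Slc22a18 and Slc22a23 (footprints, day 9) and of Slc22a23 (footprints, day 13). With DESeq2's size factors 49.1% of the genes called in RNA at day 13 were higher, and 1 transporter rose and 15 fell.

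**Figure D1:**
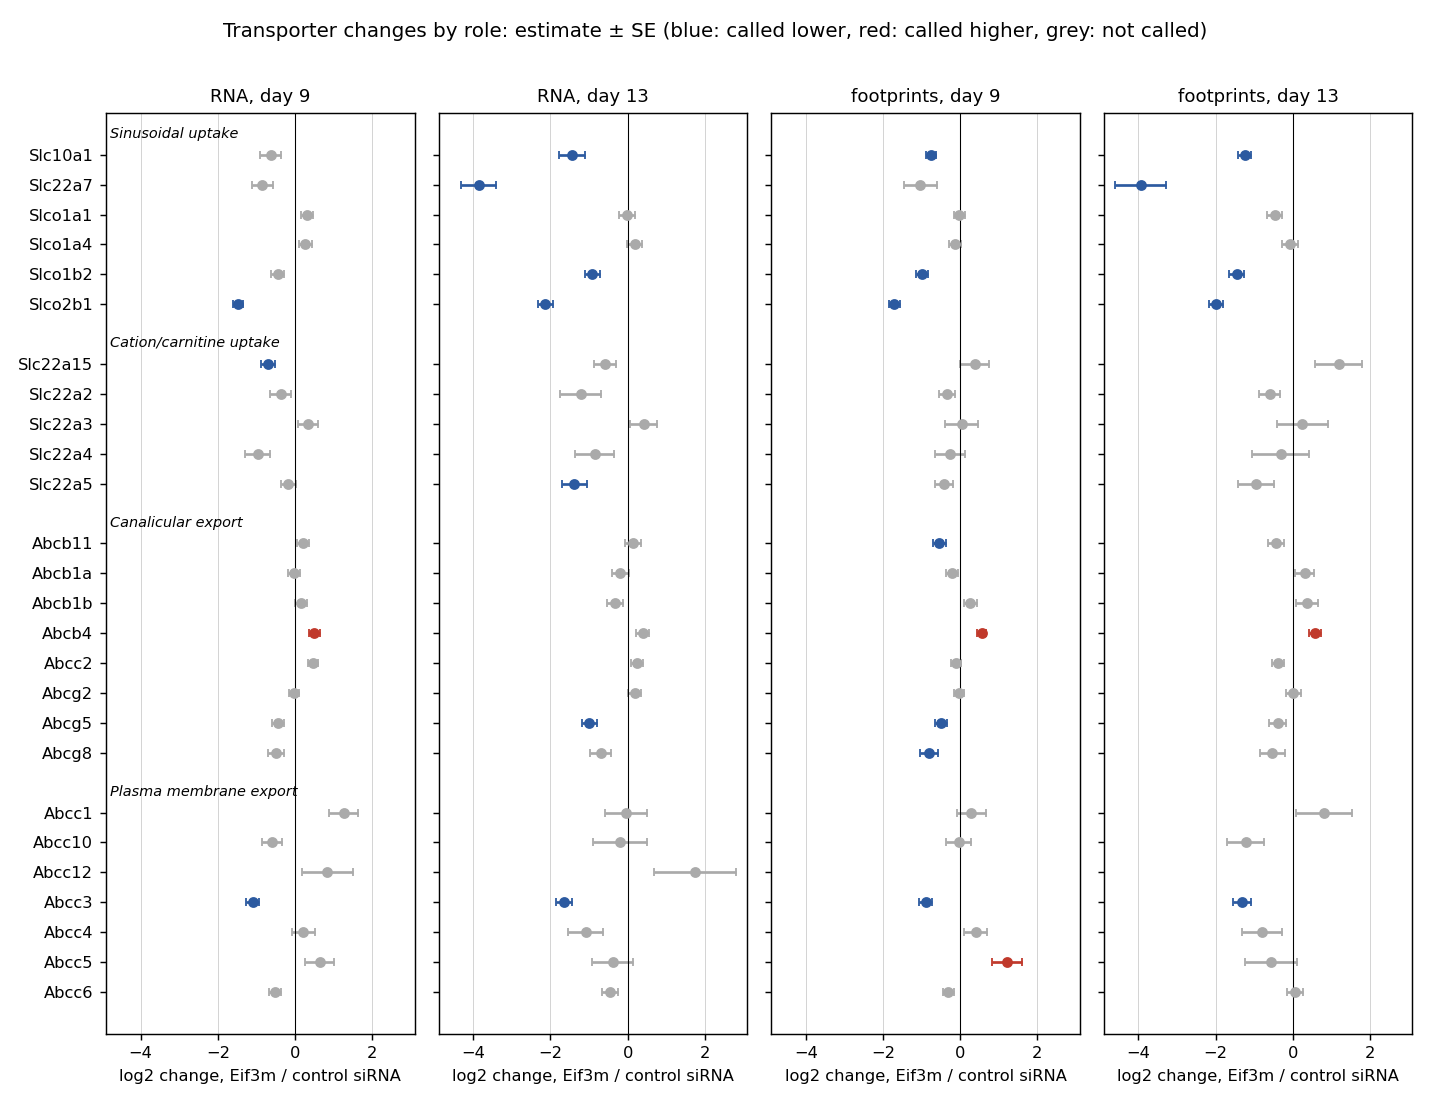
Log2 change with Eif3m siRNA (horizontal axis, bars are the SE) for tested transporters of the 4 plasma membrane roles, in 4 panels for RNA and footprints at days 9 and 13. Blue points fell, red points rose and grey points did not pass the test; Slco2b1 and Abcc3 are blue in all 4 panels, and Abcb4 is red in 3 of them.

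Promoter sequences from the RefSeq promoter table (build GRCm38.p6) are shown for Slco2b1, Slco1b2, Slc10a1, Abcb4, Abcg5 and Slc22a26, which changed with the siRNA, and for Slc22a28 and Slc22a30, cluster neighbours of Slc22a26 with no siRNA call, to set beside it. Of the 73 genes, 58 matched, with 69 promoter windows. Each sequence is the 250 bases before a start site, 5′ to 3′ on the gene's strand. Capitals mark AGGTCA (the core of nuclear receptor sites), GTTAAT (the core of HNF1 sites) or TATAAA, searched on both strands, and these do not overlap in the sequences shown. They occur in 14.0%, 6.43% and 12.4% of all 32851 windows of this length, and in 13 (18.8%), 5 (7.25%) and 10 (14.5%) of the members' 69 windows.
Slco2b1: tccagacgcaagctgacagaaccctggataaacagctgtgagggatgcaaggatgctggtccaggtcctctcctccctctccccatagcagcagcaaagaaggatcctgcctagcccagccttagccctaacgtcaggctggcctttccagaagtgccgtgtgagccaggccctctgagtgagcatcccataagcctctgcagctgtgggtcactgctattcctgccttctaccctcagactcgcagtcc
Slco1b2: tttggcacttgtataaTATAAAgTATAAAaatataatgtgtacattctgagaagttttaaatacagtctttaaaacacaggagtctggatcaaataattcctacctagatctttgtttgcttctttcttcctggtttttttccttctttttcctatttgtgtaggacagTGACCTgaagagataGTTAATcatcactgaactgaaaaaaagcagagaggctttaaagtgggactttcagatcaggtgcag
Slc10a1: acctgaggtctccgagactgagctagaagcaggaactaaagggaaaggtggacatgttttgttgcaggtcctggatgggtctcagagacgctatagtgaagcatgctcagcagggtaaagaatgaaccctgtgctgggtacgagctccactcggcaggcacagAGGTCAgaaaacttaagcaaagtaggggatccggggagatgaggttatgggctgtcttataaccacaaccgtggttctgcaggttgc
Abcb4: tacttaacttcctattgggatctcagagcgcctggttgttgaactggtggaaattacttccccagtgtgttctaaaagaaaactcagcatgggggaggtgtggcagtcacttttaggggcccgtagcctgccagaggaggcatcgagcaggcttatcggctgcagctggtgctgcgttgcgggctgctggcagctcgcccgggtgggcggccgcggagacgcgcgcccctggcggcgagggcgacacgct
Abcg5: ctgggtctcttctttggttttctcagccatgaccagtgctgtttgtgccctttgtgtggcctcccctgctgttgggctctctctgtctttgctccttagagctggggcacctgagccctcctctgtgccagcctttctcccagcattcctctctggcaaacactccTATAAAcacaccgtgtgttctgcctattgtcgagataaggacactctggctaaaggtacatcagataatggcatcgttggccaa
Slc22a26: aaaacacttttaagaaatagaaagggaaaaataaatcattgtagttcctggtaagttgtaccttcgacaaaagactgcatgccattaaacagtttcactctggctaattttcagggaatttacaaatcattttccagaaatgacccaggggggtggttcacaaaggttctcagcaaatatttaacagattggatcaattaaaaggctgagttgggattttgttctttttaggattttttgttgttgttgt
Slc22a28: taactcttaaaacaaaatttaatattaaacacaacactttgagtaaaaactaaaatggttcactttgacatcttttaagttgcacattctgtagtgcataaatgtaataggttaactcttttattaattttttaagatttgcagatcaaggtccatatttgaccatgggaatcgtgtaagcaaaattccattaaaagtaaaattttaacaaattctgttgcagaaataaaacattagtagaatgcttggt
Slc22a30: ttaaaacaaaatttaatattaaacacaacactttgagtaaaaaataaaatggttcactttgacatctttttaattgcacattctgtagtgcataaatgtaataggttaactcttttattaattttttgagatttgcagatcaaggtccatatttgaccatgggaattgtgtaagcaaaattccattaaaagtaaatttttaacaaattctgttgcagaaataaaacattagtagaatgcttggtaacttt
The windows lie at chr7:99711341-99711590 (minus strand), chr6:141629268-141629517 (plus strand), chr12:80968080-80968329 (minus strand), chr5:8893471-8893720 (plus strand), chr17:84683012-84683261 (minus strand), chr19:7802668-7802917 (minus strand), chr19:8131983-8132232 (minus strand) and chr19:8405106-8405355 (minus strand). The Slco1b2 window held all 3 motifs, with a match to AGGTCA on the other strand 81 bases and one to GTTAAT 66 bases before the start. None of the 3 Slco2b1 windows in the table held any of them. The Abcg5 and Abcg8 starts face away from each other 110 bases apart, and their windows share 109 bases. In the cluster on chromosome 19 the windows of Slc22a28 and Slc22a30 were identical at 95.2% of 250 bases, while Slc22a26 matched them at 63.2% and 64%. These are matches in a global alignment that allows gaps. By the same count the windows of the Slco1a genes and Slco1b2 matched each other at 56.4% to 60.8%, and unrelated windows were not aligned. Of the windows in the table, the Slco2b1 one shown is 1 of 3 and the Slc10a1 one 1 of 2. A match describes the letters alone.

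Among the 6 sinusoidal uptake transporters, 1 fell in RNA at day 9, 4 in RNA at day 13, 3 in footprints at day 9 and 4 in footprints at day 13, where 3.19%, 9.87%, 7.9% and 6.26% of all genes fell, and none rose in any comparison. Slco2b1, Slco1b2, Slc10a1 and Slc22a7 fell, while Slco1a1 and Slco1a4 did not pass the test in any of the 4.

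Slco2b1 encodes OATP2B1, which takes up steroid sulfates, statins and other anions. Its RNA was at 131, 132 and 153 CPM in the 3 control livers of day 9 and at 50.4, 45.2 and 53.3 CPM in the 3 Eif3m livers. Footprints of the same animals were at 157, 164 and 176 CPM and 59.4, 44.3 and 48.8 CPM. Every Eif3m liver lay below every control in both assays, a fall of 2.79-fold in RNA (log2 change -1.48, SE 0.12, adjusted p = 3.78e-05) and 3.26-fold in footprints (-1.70, SE 0.14, adjusted p = 1.47e-07). At day 13 RNA was at 17.4 and 16.9 CPM in controls and 3.998 and 3.76 CPM with Eif3m siRNA, and footprints were at 118 and 147 against 30.9 and 34.7 CPM. The groups were again apart in both assays, with log2 changes of -2.13 (SE 0.19, adjusted p = 4.17e-05) and -1.997 (SE 0.18, adjusted p = 9.71e-07). These 4 calls were kept without any 1 of the 10 libraries of an assay and under all 7 other settings, and no other transporter held all 4 of its calls throughout.

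Slco1b2 encodes the mouse counterpart of the human hepatic OATP1B transporters for bilirubin, bile acids and statins. Footprints stood at 1815, 1842 and 1652 CPM in control livers at day 9 and at 713, 822 and 1136 CPM with Eif3m siRNA. At day 13 they were at 1328 and 1201 CPM and 515 and 408 CPM. No Eif3m liver reached the lowest control on either day, and footprints fell 1.99-fold at day 9 (log2 change -0.99, SE 0.15, adjusted p = 2.00e-04) and 2.75-fold at day 13 (-1.46, SE 0.19, adjusted p = 4.96e-05). RNA was at 1499, 1669 and 1599 CPM against 1170.0, 1052 and 1267 CPM at day 9, a change of -0.45 (SE 0.16) that did not pass the test (adjusted p = 0.121). The day 9 RNA fall did pass in DESeq2 (adjusted p = 0.0428) and in edgeR with day 9 alone (adjusted p = 0.00857). At day 13 RNA was at 3888 and 5508 CPM against 2775 and 2223 CPM and fell by 0.91 on the log2 scale (SE 0.20, adjusted p = 0.00873). The groups did not overlap in RNA either, but without day 13 Eif3m replicate 2 the day 13 RNA call was lost (adjusted p = 0.0642).

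Slc10a1 encodes NTCP, the sodium-coupled carrier that takes up most conjugated bile acids from portal blood. Its footprints were at 554, 445 and 507 CPM in control and 266, 271 and 352 CPM in Eif3m livers at day 9. The day 13 values were 548 and 577 CPM and 255 and 222 CPM. All Eif3m livers were below all controls, and footprints fell on both days with log2 changes of -0.76 (SE 0.13, adjusted p = 6.83e-04) and -1.24 (SE 0.17, adjusted p = 6.60e-05), calls kept in every leave-out. RNA was at 699.8, 666 and 737 CPM against 445, 412 and 502 CPM at day 9 (log2 change -0.63, SE 0.27, adjusted p = 0.202), groups that did not overlap without passing the test. In edgeR the day 9 RNA fall did pass with no filter beyond 1 count (adjusted p = 0.00357) and with day 9 alone (adjusted p = 0.00223). At day 13 RNA was at 624 and 777 CPM against 380.0 and 136 CPM and fell by 1.43 (SE 0.33, adjusted p = 0.0132), where the shallow replicate 2 was far below replicate 1. That RNA call was lost without day 13 control replicate 1 or 2 (adjusted p up to 0.0769), and over the leave-outs the estimate ranged from -2.37 (without day 13 Eif3m replicate 1) to -0.89 (without Eif3m replicate 2).

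Slc22a7 encodes OAT2, an anion transporter of the sinusoidal membrane, and it showed the largest RNA fall of any tested transporter at day 13. Day 9 RNA was at 81.95, 61.7 and 69.1 CPM in controls and 60.8, 22.3 and 35.5 CPM with Eif3m siRNA, and footprints at 60.2, 49.1 and 53.97 against 43.9, 12.1 and 24.8 CPM. The Eif3m livers spread widely and replicate 1 stayed close to the controls, and although the groups did not overlap, neither change passed the test. The log2 changes were -0.84 (SE 0.28, adjusted p = 0.102) in RNA and -1.04 (SE 0.43, adjusted p = 0.166) in footprints. The day 9 RNA fall did pass in DESeq2 (adjusted p = 0.0423), with no filter, with the replicate block and without day 9 Eif3m replicate 1 (log2 change -1.29, adjusted p = 0.00912), and the footprint fall passed with the block and without that library (-1.57, adjusted p = 0.00786). At day 13 RNA was at 35.1 and 30.5 CPM against 2.59 and 1.503 CPM. Footprints were at 139 and 102 CPM against 12.03 and 6.15 CPM. RNA fell 14.6-fold (adjusted p = 3.61e-04) and footprints fell 15.4-fold (log2 change -3.94, SE 0.66, adjusted p = 0.0101). The footprint call was lost without day 13 control replicate 1 or day 13 Eif3m replicate 2 (adjusted p up to 0.146), its log2 change being -3.31 without the latter, and the RNA change was -4.45 without day 13 Eif3m replicate 1.

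Slco1a1 and Slco1a4 encode uptake carriers of bile acids and steroid conjugates that lie beside each other and near Slco1b2 on chromosome 6. Slco1a1 RNA was at 734, 844 and 773 CPM in controls and 995, 897 and 1022 CPM with Eif3m siRNA at day 9, higher in all 3 Eif3m livers, with a log2 change of 0.31 (SE 0.17, adjusted p = 0.320) that passed only with library totals (adjusted p = 0.0466) or day 9 alone (adjusted p = 0.0311). Its footprints were at 653, 713 and 566 CPM and 541, 675 and 688 CPM at day 9, where the groups overlapped. At day 13 they were at 486 and 377 against 371 and 256 CPM, a log2 change of -0.47 (SE 0.19, adjusted p = 0.121). Slco1a4 estimates lay between -0.14 (footprints, day 9) and 0.27 (RNA, day 9), with a 95% interval of -0.46 to 0.17 for the first. Their counts may carry reads divided between similar genes: 85% and 70% of the nonzero values of Slco1a1 and Slco1a4 are not whole numbers. Which genes shared reads is not given, so the counts of both are uncertain. Such values were also frequent for called genes, at 70% for Slc10a1, 65% for Slco1b2 and Slco2b1 and 60% for Abcc3. The shares count libraries and not reads, and over all genes the share was 44.3%.

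**Figure D2:**
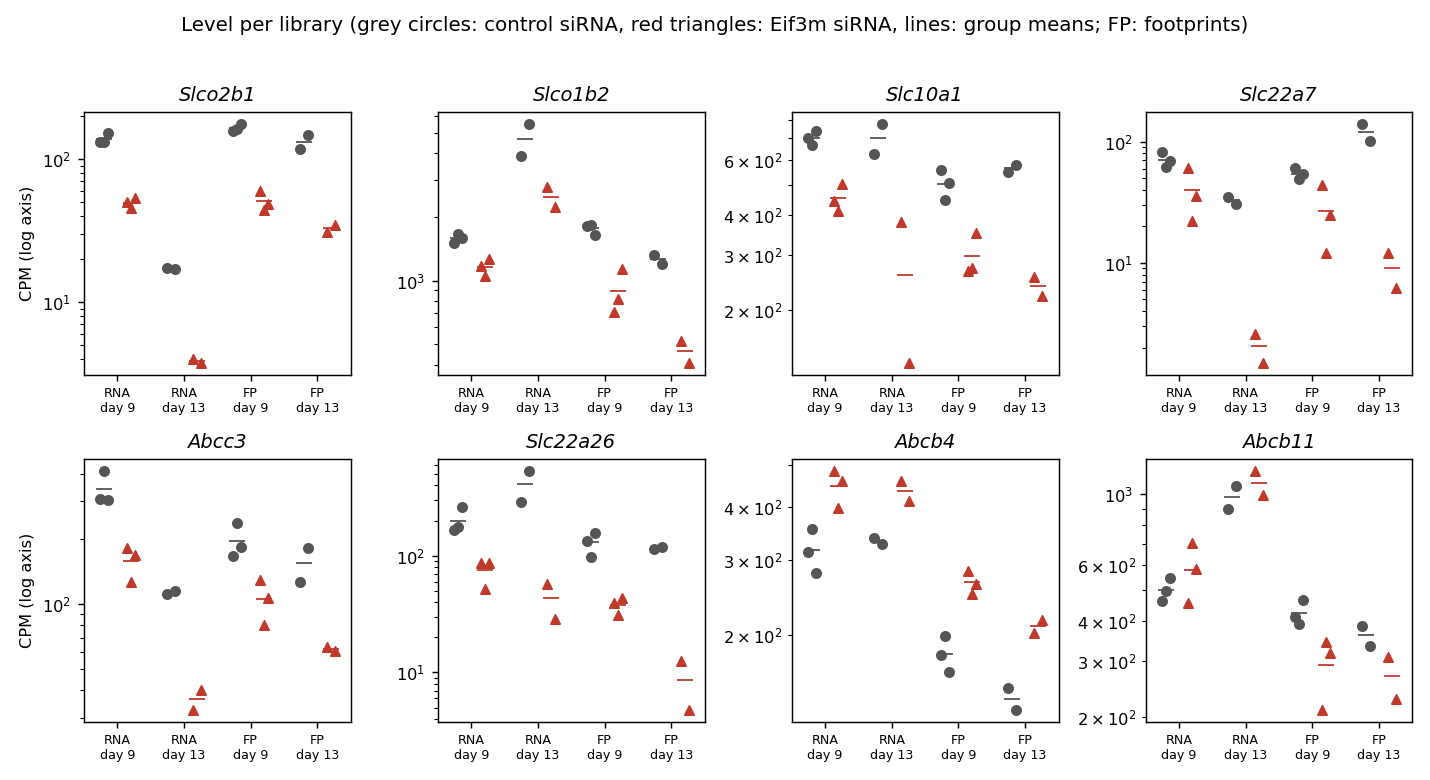
CPM in each library (log axis) for 8 transporters, by assay and day; grey circles are control livers, red triangles Eif3m livers and lines group means. The triangles of Slco2b1, Slco1b2, Slc10a1, Abcc3 and Slc22a26 lie below all circles of their pair on both days, and those of Abcb4 lie above. The Abcb11 triangles lie below the circles in footprints and overlap them in RNA, and its difference between the assays did not pass the adjusted test.

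Of the 7 carriers of organic cations and carnitine, 6 were tested. In RNA 1 fell at day 9 and 2 at day 13, in footprints 0 at day 9 and 1 at day 13, and none rose. Of all genes tested, 3.19%, 9.87%, 7.9% and 6.26% fell in the same order. Slc22a5 encodes OCTN2, the high-affinity carnitine carrier. Its RNA fell at day 13, from 5.23 and 7.21 CPM to 2.82 and 1.503 CPM (log2 change -1.38, SE 0.33, adjusted p = 0.0136), a call lost without day 13 Eif3m replicate 2 (adjusted p = 0.0727) and a change of -2.05 without Eif3m replicate 1. Footprints at day 13 went from 5.802 and 6.39 to 2.29 and 3.42 CPM (-0.95, SE 0.46, adjusted p = 0.204), groups that did not overlap. Slc22a15 RNA fell at day 9 from 4.38, 3.72 and 4.84 to 2.66, 2.59 and 2.69 CPM (-0.70, SE 0.19, adjusted p = 0.0482), a call lost when any day 9 library was left out (adjusted p up to 0.200), while its footprint estimates were 0.37 (SE 0.37) at day 9 and 1.19 (SE 0.61) at day 13. Slc22a2, Slc22a3 and Slc22a4 passed no test, with estimates between -1.22 (Slc22a2, RNA, day 13) and 0.42 (Slc22a3, RNA, day 13). Slc22a4, Slc22a21 and Slc22a5 are neighbours, and 80%, 80% and 90% of their nonzero values are not whole, so their counts are uncertain.

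The 8 canalicular pumps did not move together. Abcb4 rose, Abcg5, Abcg8 and Abcb11 fell in at least 1 comparison, and Abcc2, Abcg2, Abcb1a and Abcb1b passed no siRNA test. Abcb4 encodes MDR2, the flippase that supplies phosphatidylcholine to bile. Its footprints were at 179, 199 and 163 CPM in controls and 283, 249 and 264 CPM with Eif3m siRNA at day 9. The day 13 footprints were at 149.7 and 133 CPM and 202 and 217 CPM. Every Eif3m liver exceeded every control, and the rise was 1.47-fold (log2 change 0.56, SE 0.12, adjusted p = 0.00335) and 1.48-fold (0.57, SE 0.15, adjusted p = 0.0186). RNA rose at day 9 from 313, 354 and 279 to 484, 397 and 460.3 CPM (0.503, SE 0.14, adjusted p = 0.0473). At day 13 RNA was at 338 and 327 against 459 and 412 CPM (0.39, SE 0.17, adjusted p = 0.130), again without overlap. The day 9 footprint call was kept in all leave-outs, the day 9 RNA call was lost without day 9 control replicate 1 or 3 or any day 9 Eif3m replicate (adjusted p up to 0.197) and with the replicate block, and the day 13 footprint call was lost without either day 13 control or Eif3m replicate 2 (up to 0.182).

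Abcb1a, Abcb1b and Abcb4 are consecutive genes on chromosome 5, the first 2 encoding the multidrug pumps of P-glycoprotein. Between 75% and 85% of their nonzero values are not whole, so reads may be split between them. Abcb1a footprints were at 23.3, 25.9 and 31.5 CPM and 24.005, 22.7 and 23.1 CPM at day 9, with overlap, and its 4 estimates ran from -0.21 (SE 0.15) to 0.30 (SE 0.25). Those of Abcb1b ran from -0.33 (SE 0.22) in RNA to 0.37 (SE 0.28) in footprints at day 13. The neighbours of Abcb4 were thus not called where Abcb4 rose, and the difference between them was not tested.

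Abcb11 encodes the bile salt export pump. Its footprints fell at day 9, from 413, 391 and 468 CPM to 211, 343 and 319 CPM (log2 change -0.54, SE 0.16, adjusted p = 0.0329), with no overlap. In RNA of the same livers the levels were 464, 498 and 545 against 456, 703 and 582 CPM, which overlapped (0.21, SE 0.17, adjusted p = 0.533). Day 13 footprints were at 387 and 335 against 309 and 227 CPM (-0.44, SE 0.21, adjusted p = 0.195) and day 13 RNA at 901 and 1065 against 1182 and 994 CPM (0.15, SE 0.20, adjusted p = 0.669). The day 9 footprint call was lost when a day 9 control or Eif3m replicate 1 was left out (adjusted p up to 0.117) and with scaling by library totals.

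Abcc2 encodes MRP2, which secretes bilirubin glucuronides and glutathione conjugates. Its RNA was at 225, 286 and 258 CPM in control and 345, 385 and 328 CPM in Eif3m livers at day 9, higher in all 3, with a log2 change of 0.46 (SE 0.13, adjusted p = 0.0623) that did not pass. It passed in DESeq2, with library totals, with a filter at a mean of 5 CPM and with day 9 alone. Footprints were at 360.5, 400.3 and 353 against 292, 360.1 and 384 CPM, overlapping, and at day 13 at 265 and 267 against 206 and 202 CPM (-0.38, SE 0.16, adjusted p = 0.123). Abcg2, the breast cancer resistance protein that secretes urate and drugs, had 4 estimates between -0.03 (SE 0.13) and 0.18 (SE 0.16); the 95% interval at day 9 was -0.28 to 0.22 in RNA and -0.28 to 0.23 in footprints.

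Abcg5 and Abcg8 encode the partner subunits of the sterol exporter and have overlapping promoter windows, of which that of Abcg5 is shown above. Abcg5 RNA fell 1.99-fold at day 13, from 136 and 113 CPM to 65.6 and 59.4 CPM (log2 change -0.99, SE 0.20, adjusted p = 0.00554), a call kept in all leave-outs and other settings. Abcg8 RNA in the same livers was at 44.3 and 25.6 against 21.8 and 21.2 CPM (-0.70, SE 0.28, adjusted p = 0.108). The groups were apart for both genes. In footprints at day 9, Abcg5 fell from 78.2, 106 and 77.9 to 67.5, 49.4 and 68.9 CPM (-0.498, SE 0.16, adjusted p = 0.0436) and Abcg8 from 106, 151 and 83.6 to 86.3, 53.8 and 55.7 CPM (-0.80, SE 0.24, adjusted p = 0.0465). Abcg8 groups overlapped, with Eif3m replicate 1 above control replicate 3, and the day 9 footprint calls were lost in 6 of the 10 leave-outs for Abcg5 (adjusted p up to 0.247) and 8 for Abcg8 (up to 0.165). Both genes had estimates below 0 in all 4 comparisons, the closest to 0 being -0.40 (SE 0.22) for Abcg5 footprints at day 13.

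Among the 7 pumps of the sinusoidal and other plasma membranes, Abcc3 fell throughout and Abcc5 footprints rose at day 9. Abcc3 encodes MRP3, which returns glucuronides and bile salts to the blood. Its RNA was at 306, 409.7 and 303 CPM in controls and 181, 127 and 168 CPM with Eif3m siRNA at day 9, and at 111 and 115 against 32.6 and 40.2 CPM at day 13. Its footprints were at 166, 238 and 183 against 129, 80.2 and 107 CPM at day 9 and at 126 and 182 against 63.6 and 61.1 CPM at day 13. The groups were apart in all 4, and footprints fell 1.86-fold at day 9 (log2 change -0.90, SE 0.18, adjusted p = 0.00287) and 2.49-fold at day 13 (-1.31, SE 0.24, adjusted p = 0.00164). RNA fell 2.14-fold (adjusted p = 0.00316) and 3.13-fold (adjusted p = 4.40e-04). Of the 4 calls, the day 13 footprint call was lost without day 13 Eif3m replicate 2 (adjusted p = 0.0584).

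Abcc6, which is needed for hepatic ATP release, did not pass: RNA at day 9 was at 261, 194 and 192 CPM against 148, 156 and 148 CPM, lower in all 3 Eif3m livers (log2 change -0.52, SE 0.15, adjusted p = 0.0663), and footprints at day 13 changed by 0.06 (SE 0.20). The day 9 RNA fall did pass in DESeq2 (adjusted p = 0.0170) and in edgeR with no filter (adjusted p = 0.0309) or day 9 alone (adjusted p = 0.0135). Abcc5, a pump of cyclic nucleotides, rose in footprints at day 9 from 1.81, 0.965 and 0.748 to 2.85, 2.76 and 2.62 CPM (1.21, SE 0.39, adjusted p = 0.0436), a low level at which the call was lost in 9 of the 10 leave-outs (adjusted p up to 0.150). Abcc4, a bile salt and nucleotide pump, had estimates from -1.09 (SE 0.46) to 0.40 (SE 0.29). Abcc1 RNA at day 9 was at 1.16, 1.54 and 1.36 CPM against 3.84, 3.59 and 2.32 CPM, higher in all 3 without passing (1.26, SE 0.37, adjusted p = 0.0689). That rise did pass in DESeq2 (adjusted p = 0.0322). In edgeR it passed with library totals (adjusted p = 0.0368), no filter (adjusted p = 4.22e-04) or day 9 alone (adjusted p = 0.00502). Abcc10 and Abcc12 also passed no test, with estimates from -1.22 (SE 0.48) (Abcc10, footprints, day 13) to 1.74 (SE 1.06) (Abcc12, RNA, day 13).

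The remaining members include intracellular transporters, a tandem Slc22a cluster and genes of little known function in liver. The mouse cluster on chromosome 19 holds Slc22a19, Slc22a26, Slc22a27, Slc22a28, Slc22a29 and Slc22a30 in a row. Slc22a26 RNA was at 166, 175 and 259 CPM in controls and 85.9, 52.3 and 86.3 CPM with Eif3m siRNA at day 9, and at 289.9 and 529 against 57.5 and 28.8 CPM at day 13. Footprints were at 135, 97.1 and 158 against 39.1, 30.8 and 43.1 CPM at day 9 and at 113 and 118 against 12.6 and 4.78 CPM at day 13. No group pair overlapped, and Slc22a26 had the largest footprint fall of the tested transporters on both days, 3.45-fold (log2 change -1.79, SE 0.23, adjusted p = 2.30e-04) and 16.6-fold (-4.05, SE 0.37, adjusted p = 2.13e-05). RNA fell as well, with log2 changes of -1.42 (SE 0.30, adjusted p = 0.0185) and -3.22 (SE 0.40, adjusted p = 4.35e-04). The day 9 RNA call was lost without day 9 control replicate 3 or Eif3m replicate 2 (adjusted p up to 0.0664). At day 13 the RNA change was -3.84 without Eif3m replicate 1 and the footprint change -3.18 without Eif3m replicate 2.

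Of the neighbours of Slc22a26 in the cluster, Slc22a19, Slc22a27 and Slc22a29 fell in at least 1 comparison. Slc22a19 footprints fell at day 9 from 2.56, 2.21 and 2.39 to 0.814, 0.581 and 0.923 CPM (-1.61, SE 0.43, adjusted p = 0.0159), lost without day 9 Eif3m replicate 2 (adjusted p = 0.0778). Its day 9 RNA was near 0, with 0, 3 and 4 counts in control and 1, 0 and 1 in Eif3m libraries. At day 13 RNA was at 1.71 and 2.27 against 2.06 and 0.752 CPM, which overlapped. Its day 13 footprint call rests on 11 counts in controls and 2 in Eif3m libraries, a ratio of 13.8 (exact 95% interval 3.02 to 129, counting error only), and was lost without day 13 control replicate 2 or Eif3m replicate 2 (adjusted p up to 0.109). Slc22a27 and Slc22a29 fell in RNA at day 13, with log2 changes of -0.78 (SE 0.21, adjusted p = 0.0231) and -0.62 (SE 0.18, adjusted p = 0.0312), calls lost in 3 and 8 of the 10 leave-outs (adjusted p up to 0.137 and 0.165). Slc22a28, whose promoter window nearly matches that of Slc22a30, was at 109 and 148 CPM in control RNA at day 13 and at 164 and 119 CPM in Eif3m RNA. Slc22a30 was at 123 and 164 CPM against 176 and 128 CPM, and the groups of both genes overlapped. Between 75% and 95% of the nonzero values of these 6 genes are not whole, so reads may be divided among them and their counts are uncertain. In footprints Eif3m replicate 1 of day 9 was the lowest of the 6 day 9 libraries for Slc22a27, Slc22a28, Slc22a29 and Slc22a30.

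Slc22a18 encodes an organellar carrier from an imprinted region. Its RNA fell at day 9, from 126, 119 and 123 CPM to 74.7, 75.5 and 82.05 CPM (log2 change -0.66, SE 0.13, adjusted p = 0.00982), and at day 13 from 17.1 and 12.8 to 7.41 and 7.14 CPM (-1.03, SE 0.18, adjusted p = 0.00272). Footprints fell at day 9 by 0.49 (SE 0.13, adjusted p = 0.0156) but at day 13 changed by -0.31 (SE 0.17), which did not pass. The day 9 RNA call was lost without day 9 Eif3m replicate 1 (adjusted p = 0.0504), and the footprint call without day 9 control replicate 3 or Eif3m replicate 2 or 3 (up to 0.0632). Slc22a23, an orphan carrier, fell in RNA at day 13 from 26.4 and 21.7 to 10.1 and 12.4 CPM (-1.13, SE 0.19, adjusted p = 0.00246), kept in all leave-outs. Its footprints fell on both days, with log2 changes of -0.70 (SE 0.22, adjusted p = 0.0413) at day 9, where the groups overlapped, and -1.19 (SE 0.33, adjusted p = 0.0246) at day 13. These calls were lost in 6 and 3 of the 10 leave-outs (adjusted p up to 0.186 and 0.251).

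The mitochondrial and lysosomal transporters Abcb10, Abcb6 and Abcb8, of which the first 2 act in heme metabolism, fell in RNA at day 13, with log2 changes of -0.99 (SE 0.29), -0.69 (SE 0.20) and -1.27 (SE 0.39) (adjusted p = 0.0334, 0.0358 and 0.0413). Their footprints at day 13 passed no test, with estimates of -0.58 (SE 0.28), -0.17 (SE 0.22) and -0.38 (SE 0.23). Over the leave-outs the RNA changes ranged from -1.39 to -0.53 for Abcb10, from -0.98 to -0.33 for Abcb6 and from -2.02 (without day 13 Eif3m replicate 1) to -0.60 (without day 13 control replicate 1) for Abcb8. The 3 RNA calls were lost in 8, 9 and 9 of the 10 leave-outs (adjusted p up to 0.310, 0.204 and 0.251). Abcb9 passed no test in RNA. Slc10a5, an orphan of the bile acid carrier family, fell in RNA at day 13 from 76.2 and 75.5 to 47.6 and 42.5 CPM (-0.75, SE 0.16, adjusted p = 0.00723), kept in all leave-outs but lost with day 13 fitted alone.

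Abcg1, a cholesterol efflux transporter that macrophages also express, rose in footprints at day 9 from 10.2, 9.79 and 9.57 to 18.3, 15.98 and 15.5 CPM (0.75, SE 0.21, adjusted p = 0.0216), a call lost when any day 9 control was left out (adjusted p up to 0.0725). Beside it, the summed level of 8 Kupffer cell markers was 442 to 523 CPM in control and 408 to 478 CPM in Eif3m footprints at day 9, with no marker at 0. Of these markers Cd68, which other macrophages share, rose (log2 change 0.84, SE 0.24), while Clec4f (-1.68, SE 0.15) and Vsig4 (-1.98, SE 0.25) fell. Their part in the Abcg1 change was not tested. Slco2a1, the prostaglandin carrier, rose in footprints at day 13 from 70.2 and 64.99 to 104 and 93.5 CPM (0.54, SE 0.17, adjusted p = 0.0395), lost without day 9 control replicate 2 or any day 13 library (adjusted p up to 0.226). Slco2a1 is known from endothelium, and 8 sinusoidal endothelial markers summed to 675 to 678 CPM in controls and 643 to 722 CPM in Eif3m footprints at day 13. The members outside the named roles number 36, of which 19 were tested in RNA and 18 in footprints. Slc22a18 and Slc22a26 fell in RNA at day 9. In RNA at day 13, 7 fell, and 4 fell in footprints at day 9 and 3 at day 13. Of all genes tested, 3.19%, 9.87%, 7.9% and 6.26% fell in the same order.

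The siRNA effect differed between the days for 3 member changes. In RNA 0 of 53 transporters had a higher and 2 a lower effect at day 13 than at day 9, against 0.341% and 0.888% of all genes; in footprints the counts were 0 and 1 of 50, against 0.221% and 0.598%. Slc22a7 RNA fell further at day 13 by 3.02 (SE 0.54, adjusted p = 0.0283), and its footprint difference was -2.90 (SE 0.79, adjusted p = 0.213). Slc22a26 footprints fell further by 2.26 (SE 0.43, adjusted p = 0.0319), and its RNA difference was -1.80 (SE 0.47, adjusted p = 0.0835). Abcg3, a rodent member of the Abcg family, was at 3.504, 2.98 and 3.64 CPM in control and 4.76, 4.604 and 5.33 CPM in Eif3m RNA at day 9 but at 12.1 and 16.3 against 7.23 and 8.08 CPM at day 13. Its Eif3m livers were thus above the controls at day 9 and below them at day 13, a day difference of -1.45 (SE 0.29, adjusted p = 0.0363), of which the day 13 fall passed on its own (-0.91, SE 0.23, adjusted p = 0.0173) and the day 9 rise did not (0.54, SE 0.18, adjusted p = 0.1004). The day 13 RNA fall was lost without day 13 Eif3m replicate 1 (adjusted p = 0.103). The day differences were lost in 5 (Slc22a7), 6 (Slc22a26) and 8 (Abcg3) of the 10 leave-outs, with adjusted p up to 0.115, 0.365 and 0.122. The Slc22a7 difference was -3.61 without day 13 Eif3m replicate 1 and that of Slc22a26 -1.40 without day 13 Eif3m replicate 2. In RNA the library kit changed between the days, KAPA mRNA capture at day 9 and NeoPrep at day 13, so kit and day cannot be told apart.

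In control livers the RNA levels of several carriers differed widely between the days, whose RNA kits differed, while their footprints did not. Slco1a5 RNA averaged 8.12 CPM in day 9 controls and 208 CPM in day 13 controls, and Slco1a6 4.24 and 169 CPM, while their footprints averaged 41.4 and 33.7 CPM and 21.9 and 18.3 CPM. Slco2b1 went the other way in RNA, from 138 to 17.2 CPM, with footprints at 165 and 133 CPM. Abcc6 RNA went from 216 to 15.7 CPM with footprints at 130 and 96.5 CPM. A total of 32 members were at 10 CPM or more in both RNA and footprints of day 9 controls. Of these, 1 was at least 4-fold higher and 5 at least 4-fold lower in day 13 RNA. Among all 5854 genes past that floor, 134 were higher and 1239 lower (23.5%), so such RNA shifts were not particular to the carriers. No floor was set at day 13, so falls were easier to count than rises, and Slco1a5 and Slco1a6 were left out. Of the nonzero values of Slco1a5 and Slco1a6, 70% and 80% are not whole, so their counts are uncertain. In footprints, with a floor of 10 CPM at day 9 alone, 0 of 34 members differed 4-fold. There 18 of 6509 genes were higher and 24 lower (0.645%).

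Footprint libraries used the same kit (Epicenter ART-seq) on both days, and the control livers could be tested there. At day 13, 0 of 50 transporters were higher and 5 lower than at day 9, against 5.47% and 4.88% of all genes. The 5 were Abcb1a (log2 change -0.98, SE 0.22, adjusted p = 0.00710), Slc22a28 (-1.04, SE 0.33, adjusted p = 0.0486), Abcg2 (-0.68, SE 0.17, adjusted p = 0.0131), Slco1a1 (-0.58, SE 0.17, adjusted p = 0.0398) and Abcc2 (-0.48, SE 0.14, adjusted p = 0.0374). Abcb1a fell from 23.3, 25.9 and 31.5 CPM to 12.8 and 14.4 CPM, with the groups apart. Leaving out day 13 control replicate 1 or replicate 2 left 0 of the 5 (adjusted p up to 0.369, for Slco1a1). Slc22a7 control footprints were at 60.2, 49.1 and 53.97 CPM at day 9 and 139 and 102 CPM at day 13, higher in both day 13 controls, with a change of 1.15 (SE 0.46, adjusted p = 0.182). Markers of other cells also differed between these controls, with the stellate markers Col1a1 (3.08, SE 0.20) and Col3a1 (2.26, SE 0.17) and the endothelial Lyve1 (1.51, SE 0.26) higher and the Kupffer marker Marco (-2.13, SE 0.43) lower at day 13. Library names carry different prefixes on the 2 days, so the day and the set of animals cannot be told apart.

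**Figure D3:**
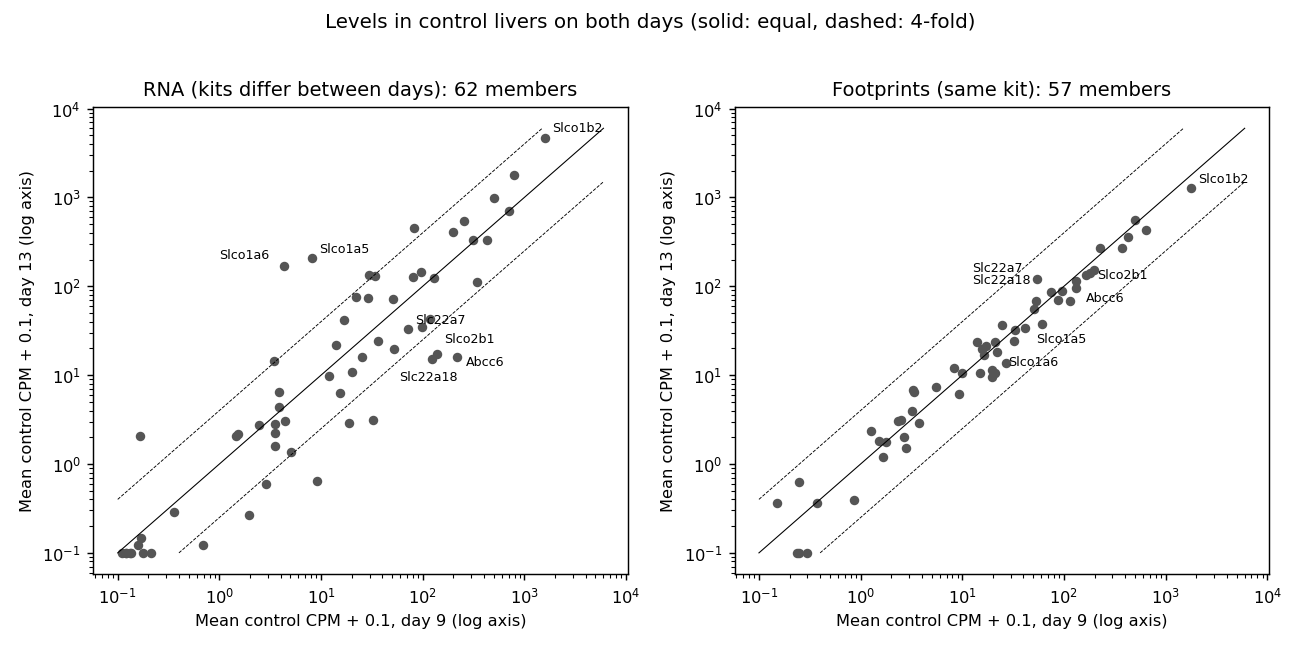
Mean CPM of control livers at day 13 against day 9, with 0.1 CPM added for plotting, on log axes, for RNA (left) and footprints (right); each point is a transporter above 0 on at least 1 day. Points leave the dashed 4-fold lines in RNA, among them Slco1a5, Slco1a6, Slco2b1 and Abcc6, while in footprints the labelled genes lie within them.

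The footprint change minus the RNA change of the same gene, a measure of translational efficiency, was tested in 1 model over all 20 libraries. No transporter of 51 passed at day 9, at day 13 or for the day difference, where 0%, 0.0211% and 0% of 14236 genes passed in edgeR. At an unadjusted p below 0.05 there were 6, 8 and 2 transporters of 51 and 692, 1425 and 765 of all genes, and DESeq2 called 0 transporters in each. Of the 6 sinusoidal uptake carriers, 6 had estimates below 0 at day 9 and 4 at day 13, with medians of -0.29 and -0.24 where the 51 transporters had -0.07 and 0.08, and at day 13 they ran from -0.63 to 0.13.

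Abcc2 and Abcb11 had the lowest unadjusted p among the transporters at day 9. The log2 ratio of footprint to RNA CPM (0.5 CPM added to both) of Abcb11 was -0.17, -0.35 and -0.22 in control animals and -1.11, -1.03 and -0.87 in Eif3m animals at day 9. At day 13 the ratios were -1.22 and -1.67 against -1.93 and -2.13. All Eif3m animals lay below all controls of their day, with model estimates of -0.76 (SE 0.25) (unadjusted p = 0.00502, adjusted p = 0.802 in edgeR) and -0.67 (SE 0.31) (adjusted p = 0.467). Abcc2 ratios were 0.68, 0.48 and 0.45 against -0.24, -0.10 and 0.23 at day 9 and -1.09 and -0.95 against -1.67 and -1.63 at day 13. They too did not overlap, and the estimates were -0.57 (SE 0.18) and -0.72 (SE 0.23) (unadjusted p = 0.00421 and 0.00377, adjusted p = 0.782 and 0.248 in edgeR). For Slco1b2 the estimates were -0.55 (SE 0.23) and -0.63 (SE 0.28), and for Slco2b1 -0.24 (SE 0.18) and 0.06 (SE 0.26). Slc22a15 went the other way, with 1.06 (SE 0.39) and 1.73 (SE 0.62), on RNA and footprints of under 5 CPM.

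**Figure D4:**
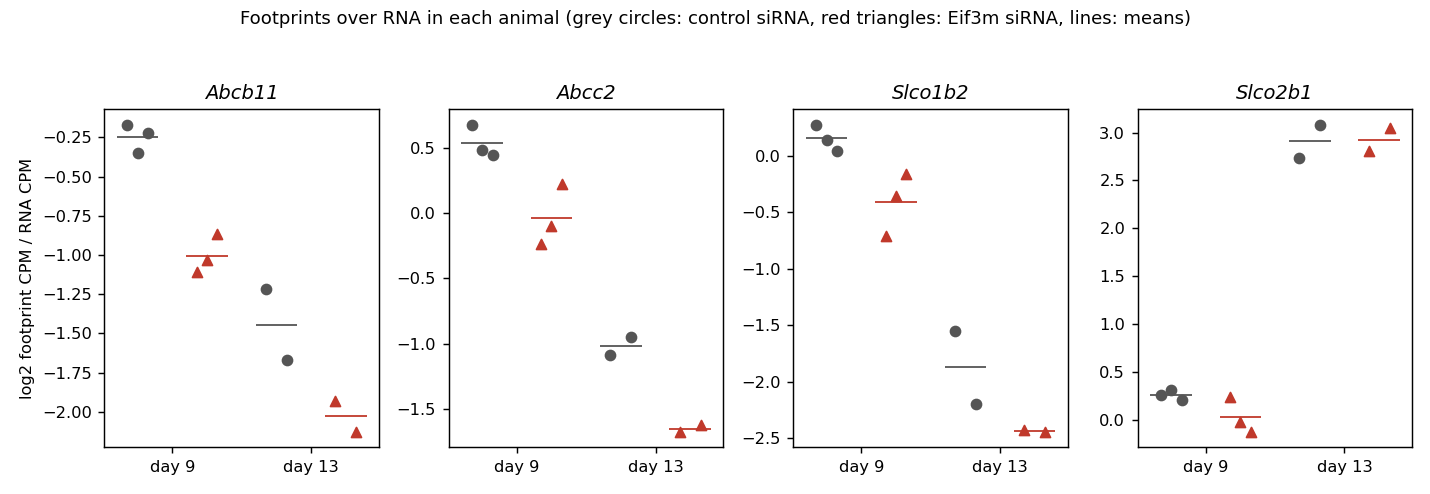
Log2 ratio of footprint to RNA CPM in each animal for Abcb11, Abcc2, Slco1b2 and Slco2b1, with grey circles for control and red triangles for Eif3m animals and lines for means. The triangles of Abcb11, Abcc2 and Slco1b2 lie below the circles of their day, those of Slco2b1 overlap them on both days, and no difference passed the adjusted test.

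**Figure D5:**
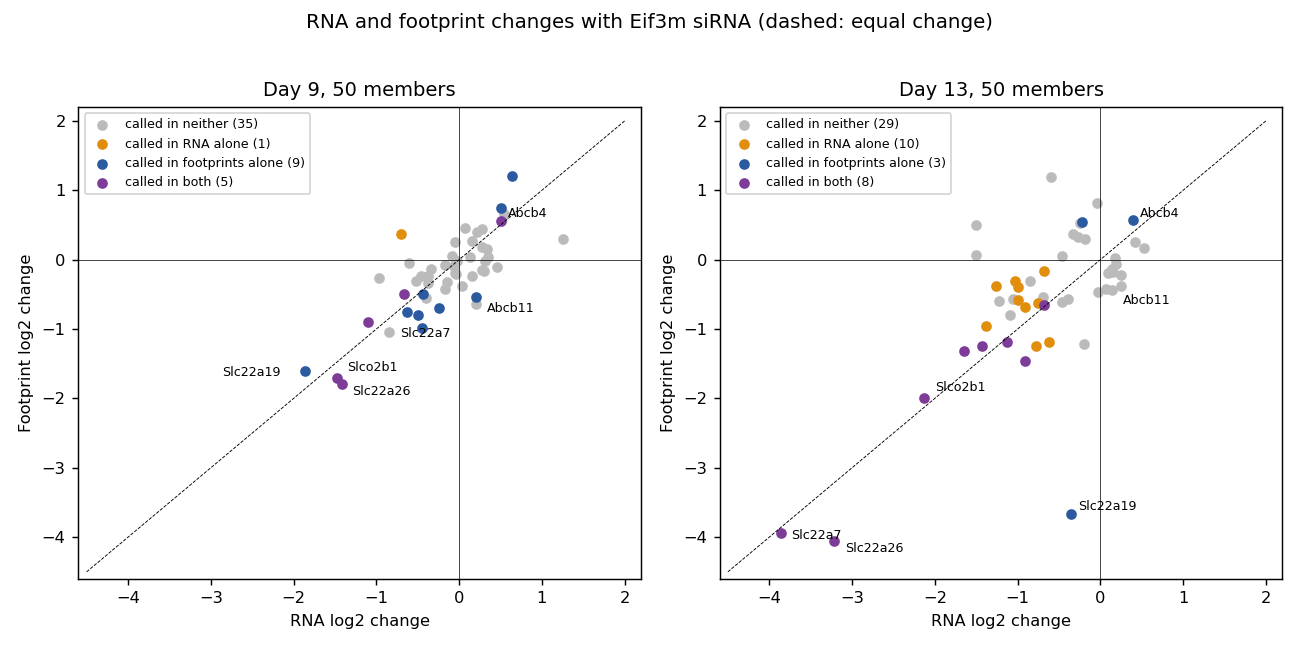
Footprint against RNA log2 change of the 50 transporters tested in both assays at day 9 (left) and day 13 (right), coloured by where they were called; the dashed line marks equal changes. At day 9, 5 were called in both, 9 in footprints alone and 1 in RNA alone, and at day 13, 8, 3 and 10. The same split of all genes was not counted. Of all genes tested at day 9, 2.48% rose and 3.19% fell in RNA, and 6.84% and 7.9% in footprints. At day 13 the shares were 6.09% and 9.87% in RNA and 6.12% and 6.26% in footprints.

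Genes that make bile acids were among those that fell. Of 15 genes of bile acid synthesis and conjugation, 0 rose and 3 fell in RNA at day 9, and 1 rose and 6 fell at day 13. In footprints 0 rose and 8 fell at day 9, and 1 rose and 7 fell at day 13. Of all genes tested, 2.48%, 6.09%, 6.84% and 6.12% rose in the same order, and 3.19%, 9.87%, 7.9% and 6.26% fell. Cyp27a1, the sterol 27-hydroxylase that opens the alternative pathway, fell in footprints, with log2 changes of -0.74 (SE 0.16) at day 9 and -1.02 (SE 0.20) at day 13. Akr1d1, the reductase that shapes the steroid ring, had footprint changes of -1.10 (SE 0.14) and -1.36 (SE 0.18), and Baat, which conjugates bile acids to taurine, of -0.49 (SE 0.12) and -1.004 (SE 0.15). The 1 riser at day 13 was Acox2, a peroxisomal side chain oxidase, with 0.57 (SE 0.18) in RNA and 0.71 (SE 0.16) in footprints.

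Among 16 regulators of transporter genes, 2 fell in RNA and 2 in footprints at day 9, and 3 in each at day 13. At day 13, 2 also rose in footprints. Of all genes tested, 3.19% and 7.9% fell at day 9 and 9.87% and 6.26% at day 13, where 6.12% rose in footprints. Nr1i3, the receptor CAR, fell in RNA, with log2 changes of -0.85 (SE 0.19) at day 9 and -1.11 (SE 0.25) at day 13, and in footprints at day 13 with -1.36 (SE 0.36). Nr0b2, the repressor SHP induced by bile acids, fell at day 9, with -1.12 (SE 0.22) in RNA and -1.07 (SE 0.26) in footprints. Rxra, the partner of CAR, fell in footprints, with -0.48 (SE 0.13) at day 9 and -0.59 (SE 0.16) at day 13. Of 14 tested partners of transport and the canalicular membrane, 2 fell in RNA at day 9 and 4 at day 13. In footprints 4 fell at day 9 and 2 at day 13, and none rose in either assay. The shares of all genes that fell were 3.19%, 9.87%, 7.9% and 6.26% in that order. Slc47a1, the MATE1 cation exporter, was lower in all 4, with footprint changes of -1.06 (SE 0.18) and -1.17 (SE 0.27), as was Atp7b, the copper pump, with -0.63 (SE 0.13) and -1.16 (SE 0.18).

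The labelled tissue matched its markers, since all 10 hepatocyte markers were above 0 in every group and summed to at least 111624 CPM. Their sum was lower with Eif3m siRNA: in RNA it was 148140 to 156380 CPM in control and 111624 to 121563 CPM in Eif3m livers at day 9, and 262452 to 302943 against 153696 to 212924 CPM at day 13. In footprints it was 178576 to 214642 against 121730 to 142401 CPM and 250946 to 253062 against 132710 to 162881 CPM. Of the 10 markers, 2 fell in RNA on each day and 4 and 3 in footprints at days 9 and 13, and none rose. Among all genes tested, 3.19% and 9.87% fell in RNA and 7.9% and 6.26% in footprints at days 9 and 13. The 10 pericentral hepatocyte markers were also lower in sum, 11356 to 13209.7 against 7280.25 to 9842 CPM in day 9 footprints, and 4 of them fell there. The 8 periportal markers had a higher sum in day 9 footprints, 6017 to 8602 against 9709 to 11154 CPM, but went both ways, with Pck1 up (1.29, SE 0.29) and Cyp2f2 (-0.64, SE 0.15) and Gls2 (-0.54, SE 0.14) down. The 8 cholangiocyte markers summed to 29.9 to 83.0 CPM across all libraries, with 1 or 2 of the 8 at 0 in each group. The 8 Kupffer cell markers summed to 206 to 264 CPM in control and 68.8 to 81.9 CPM in Eif3m RNA at day 13, and to 404 to 453 against 216 to 270.3 CPM in footprints, with 7 and 4 of them lower. Of 8 sinusoidal endothelial markers 5 fell in RNA at day 13 and 0 in footprints. The stellate markers Col1a1 and Col3a1 rose in footprints at day 9, by 1.37 (SE 0.18) and 1.15 (SE 0.15), and fell at day 13, with log2 changes of -2.07 (SE 0.22) and -1.13 (SE 0.19). The part of these shifts in the transporter changes was not tested.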

How the data were processed

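RNA-seq and ribosome footprint libraries came from 10 livers, 20 libraries in all. The authors deposited expected counts per gene symbol, not normalised per the values, of which 44.3% of those above 0 are not whole, and how the authors counted is not given in the sources used here. The submitters' processing notes name cutadapt, Bowtie and Bowtie2, and the genome build is not given in the sources used here. All values lie within 0.01 of a multiple of 1/6, so reads shared between similar genes may have been divided. Which genes shared reads is not given. Close paralogs are thus uncertain, as are antisense or overlapping genes.

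Counts were rounded and tested with edgeR 4.0.16 (R 4.3.3) by the robust quasi-likelihood F test after filterByExpr and TMM scaling, with 4 groups per assay sharing 1 estimate of spread. The RNA and footprint libraries of an animal come from the same liver, with correlated deviations (r from 0.09 to 0.37), and efficiency was the footprint minus the RNA change in 1 model over 20 libraries. With the animal as a block, efficiency also gave 0 transporters called at day 9 and at day 13. P-values were adjusted over all genes tested, with a threshold of 0.05.

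Members and lists were chosen with earlier results of these data known. Named were tested members of the 4 plasma membrane roles and other members called, save some results that are not reported here, apart from genes added for their control levels, neighbours or ratios after their values were seen. In the other lists up to 6 called genes could be named. Alternatives were DESeq2 1.42.0, DESeq2 size factors, library totals, other filters, a replicate block, each day alone and each library left out. Protein sequences and levels per length were not used here. The interval of a ratio of counts covers counting error only, those of log2 changes are 1.96 SE of the fit on either side, and the depth of each library limits the precision of low genes.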

Additional observations from a re-analysis of the deposited data

Results flagged for a closer look

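The siRNA effect differed between day 9 and day 13 for 3 transporter changes, by the edgeR test of the day difference itself. The difference was -3.02 on the log2 scale for Slc22a7 RNA, -2.26 for Slc22a26 footprints and -1.45 for Abcg3 RNA, in each case lower at day 13. Each call was lost in 5 or more of the 10 leave-outs. For RNA the kit changed with the day, and the 2 cannot be told apart.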

How the results depend on the processing

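No transporter call changed direction under any alternative run, but counts of called transporters did change. RNA at day 9 gave 6 changed transporters, against 11 with no filter beyond 1 count, 12 in DESeq2 and 18 with that day fitted alone, and 3 to 15 over the leave-outs (3 without day 9 control replicate 3, 15 without day 13 control replicate 1). RNA at day 13 gave 18, against 7 with that day alone and 11 (without day 13 Eif3m replicate 2) to 19 over the leave-outs. With day 13 alone the RNA calls lost included those of Slco1b2, Slc22a5, Slc22a18, Slc22a27, Slc22a29, Slc10a5, Abcg3, Abcb6, Abcb8 and Abcb10. Footprints at day 9 gave 14, against 9 in DESeq2 and 8 (without day 9 control replicate 2) to 19 (without day 9 Eif3m replicate 1), and at day 13 11, against 4 (without day 13 Eif3m replicate 2) to 15. The RNA day difference gave 2, against 1 with library totals, 8 with no filter and 0 to 9 over the leave-outs. That of footprints gave 1, against 2 with no filter, 2 in DESeq2 and 0 to 2. The control footprint comparison gave 5, against 8 with library totals, 10 with no filter and 0 to 11. Efficiency at day 13 gave 0, and 0 to 2 over the leave-outs, with Abcg1 (3.09, adjusted p = 0.00884) and Slc22a18 (1.12, adjusted p = 0.0209) called in edgeR without day 13 control replicate 2. The cause of these changes was not tested. Replicate numbers of the 2 siRNA groups are shared numbers only (same-number correlations of -0.11 to 0.22 in RNA and -0.08 to 0.04 in footprints). With the replicate block the counts were 6, 15, 13 and 10 in RNA at day 9, RNA at day 13, footprints at day 9 and footprints at day 13, 1 and 2 for the RNA and footprint day differences and 1 for the control footprints. Depth limits footprints at day 13, where 3 of 4 libraries held 1.64 to 2.12 M counts.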
